A study of Rattus norvegicus with 6 samples.

Results

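The let-7 family was followed in the exosomes of rat serum, membrane vesicles shed by many cell types. Its members were rno-let-7a-5p, rno-let-7b-5p, rno-let-7c-5p, rno-let-7d-5p, rno-let-7e-5p, rno-let-7f-5p, rno-let-7g-5p, rno-let-7i-5p and rno-miR-98-5p, taken by name from a table of mature microRNAs (miRNAs), with 5p the arm of the hairpin that holds the let-7 sequence and rno, the prefix for rat, left out below. They were 9 of 763 miRNAs in the table and of 480 with at least 1 count, and 9 of 9 members passed the abundance filter that left 226 miRNAs for testing. All animals were adult male Sprague-Dawley rats of 9 to 10 weeks and 250 to 280 g, anesthetized with pentobarbital. The 3 IPC samples came from rats given ischemic preconditioning, 3 rounds of 5 min of occlusion of the left anterior descending coronary artery with 5 min of reperfusion after each. The 3 control samples came from rats whose blood was taken from the left ventricle in the same way with no preconditioning, and no sham ligation is described for them. Whether each sample is a different rat is not said in the labels, and the p-values therefore reflect only sample-to-sample spread, which may be technical. Exosomes of every source in serum were sequenced together, so fewer vesicles from a source and less of a miRNA per vesicle cannot be told apart.

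The library totals, in counts recovered from the deposited values, were between 111048 and 152343 in the control libraries and between 319285 and 762927 in the IPC libraries, so depth separated the groups. The controls were not alike. Spearman correlations over the 226 tested miRNAs are a description of libraries that share the same miRNAs. That of control replicate 2 was 0.93 with IPC replicate 3 and 0.78 and 0.69 with control replicates 1 and 3. Control replicate 1 was also nearer to IPC replicate 1 (0.88) than to control replicate 3 (0.86). The lowest values were those of control replicate 3, 0.62 with IPC replicate 3 and 0.69 with control replicate 2. The family share, the let-7d arms and the fold changes below are given with and without control replicate 2. A red-cell lysis measure, the count of miR-451-5p over that of miR-23a-3p, was 6.15, 3.33 and 16.0 in control replicates 1, 2 and 3. It was 0.767, 1.43 and 2.33 in IPC replicates 1, 2 and 3, so it was lower in every IPC library. Its denominator miR-23a-3p was itself higher in every IPC library. In reads adjusted to a common library size it had 488 ± 255 in controls and 1401 ± 468 after IPC (SD, n = 3 each). miR-451-5p overlapped between the groups, at 3119 ± 1173 and 1872 ± 404, so the ratio does not measure red-cell content alone. Red-cell markers (4 of the 5 listed were in the table) took 4.09% to 7.77% of control counts and 4.92% to 5.78% of IPC counts, and miR-144-5p was at 0 in at least 1 library. Platelet markers (4 of 4) took 2.00% to 9.02% of control and 6.41% to 7.92% of IPC counts, leukocyte markers (5 of 5) 0.685% to 2.01% and 1.61% to 2.57%, liver markers (3 of 3) 1.04% to 2.29% and 0.703% to 1.47%, and muscle markers (6 of 6) 0.216% to 1.83% and 1.42% to 8.44%. No marker of these last 4 lists was at 0 in any library. The platelet sum was mostly miR-24-3p, at 11525 ± 5407 adjusted reads in controls and 17701 ± 3584 after IPC, with overlapping groups. By contrast miR-223-3p, at 324 ± 153 and 1125 ± 559, was higher in every IPC library, as were 12.4% of all miRNAs tested. The platelet markers miR-126a-3p and miR-126a-5p overlapped between the groups. The part of lysis, depth and other cell sources in the values below was not tested.

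The let-7 miRNAs are among the most conserved miRNAs of animals. Mature let-7 loaded into an Argonaute protein pairs through its seed with sites in target mRNAs, among them those of Ras genes, Hmga2 and Lin28, and lowers their output. The LIN28 proteins in turn bind the loop of let-7 precursors and block their maturation, so the family is low in stem cells and high in differentiated tissue, and it is a regular part of blood vesicle RNA.

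The mature sequences show what the members share and where they part. The following are the RefSeq sequences (build GRCr8), 5′ to 3′, with the seed, bases 2 to 8, in capitals.
let-7a-5p: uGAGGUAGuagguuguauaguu
let-7b-5p: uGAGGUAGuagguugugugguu
let-7c-5p: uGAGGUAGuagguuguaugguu
let-7d-5p: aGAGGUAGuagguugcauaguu
let-7e-5p: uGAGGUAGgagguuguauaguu
let-7f-5p: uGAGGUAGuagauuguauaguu
let-7g-5p: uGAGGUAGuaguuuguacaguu
let-7i-5p: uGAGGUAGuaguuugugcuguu
miR-98-5p: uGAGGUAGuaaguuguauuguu

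All 9 members matched a RefSeq entry, all were 22 bases long and all had the seed GAGGUAG. Of the 686 miRNAs of the table with a RefSeq sequence, 9 had this seed, and these were the 9 members. Their differences lay outside the seed. Counted from 1 at the 5′ end and with let-7a-5p as the reference, let-7c-5p had A19G, let-7b-5p had A17G and A19G, let-7e-5p had U9G, let-7f-5p had G12A, and let-7d-5p had U1A and U16C. Relative to the same reference let-7g-5p had G12U and U18C, miR-98-5p had G11A and A19U, and let-7i-5p, the farthest from let-7a-5p, had G12U, A17G, U18C and A19U. Of the 36 pairs of members 4 differed by 1 base, and the most distant pair, let-7d-5p and let-7i-5p, by 6. The sources used here do not give the mismatches that the authors' alignment allowed, so the split of reads between members 1 base apart is uncertain.

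The 9 sequences come from 12 genes in RefSeq. let-7a, let-7c and let-7f have 2 genes each. let-7i-5p lies at chr7:60527935-60527956 on the minus strand (GRCr8), with no other member next to it. let-7g-5p lies at chr8:115701026-115701047 on the plus strand, within the span of Wdr82. let-7b-5p lies at chr7:118684044-118684065 on the plus strand, just after a let-7c gene. A cluster on chromosome 17 holds let-7a, let-7f and let-7d genes, and the X chromosome holds the other let-7f gene beside miR-98 within Huwe1. The remaining genes lie beside members of the miR-99, miR-100 and miR-125 families.

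let-7i-5p was the most abundant member. It was at 4598, 11464 and 2999 normalised counts (reads adjusted to a common library size of 265919) in control replicates 1, 2 and 3. After IPC it was at 6953, 16540 and 16704 in replicates 1, 2 and 3. IPC replicates 2 and 3 lay above every control, while IPC replicate 1 lay below control replicate 2, so the groups overlapped. In reads it had from 1313 in control replicate 3 to 39454 in IPC replicate 2, and it ranked between 2 and 18 among all miRNAs of a library.

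let-7g-5p, which shares G12U and U18C with let-7i-5p, was at 505, 1188 and 355 normalised counts in control replicates 1, 2 and 3. It was at 761, 4073 and 6764 in IPC replicates 1, 2 and 3. The same libraries were high as for let-7i-5p, and IPC replicate 1 again lay below control replicate 2. let-7b-5p behaved differently. Its control values were 829, 590 and 5590 normalised counts in replicates 1, 2 and 3, and its IPC values were 532, 593 and 580. Control replicate 3 was at 9.47 times the median of the other 5 libraries, which all lay between 532 and 829. It had 2449 reads there and ranked 12 among all miRNAs of that library, against ranks of 35 to 50 elsewhere.

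let-7f-5p was at 343, 1820 and 400 normalised counts in control replicates 1, 2 and 3 and at 323, 1072 and 4553 in IPC replicates 1, 2 and 3. let-7c-5p was at 603, 1338 and 688 in the controls and at 703, 1110 and 1892 after IPC in the same order of replicates. let-7a-5p, the reference of the family, was at 410, 984 and 585 and at 342, 528 and 1779. For these 3 members control replicate 2 and IPC replicate 3 were the high libraries of their groups, and the groups overlapped. let-7d-5p was at 129, 518 and 60.2 in the controls, where control replicate 2 was the highest of all 6 libraries, and at 215, 205 and 354 after IPC. miR-98-5p was at 7.25, 72.7 and 9.83 in the controls and at 14.9, 52.6 and 196 after IPC. let-7e-5p, the scarcest, was at 4.08, 29.5 and 11.8 and at 5.60, 14.1 and 41.0. These last members rested on few control reads, 2, 59 and 4 for miR-98-5p and 1, 24 and 5 for let-7e-5p, and a count of 1 has an exact 95% Poisson interval of 0.0253 to 5.57, for counting error only.

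**Figure D1:**
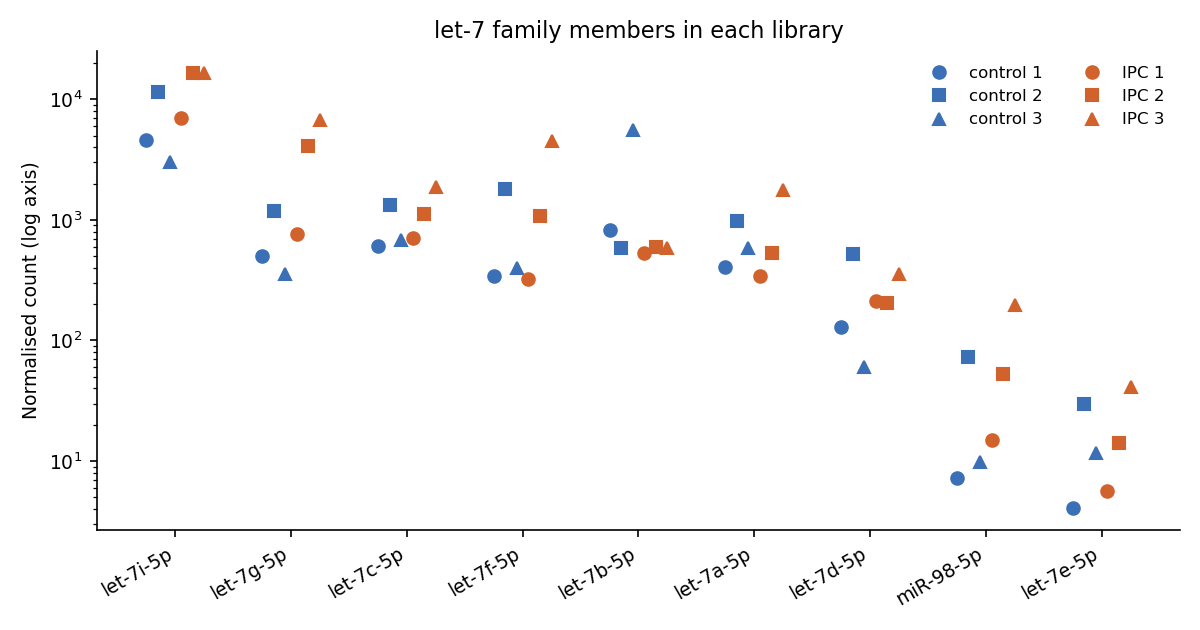
Normalised count (log axis) of each let-7 family member in the 3 control (blue) and 3 IPC (orange) libraries, with members ordered by their median. let-7i-5p led in 5 of 6 libraries, and in control replicate 3 let-7b-5p, at 5590, lay above let-7i-5p, at 2999.

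The order of members was alike in most libraries. let-7i-5p ranked first in the family in 5 of 6 libraries, and let-7d-5p ranked 7 in every library, with miR-98-5p and let-7e-5p below it. The places between were less fixed. let-7b-5p ranked from 1 to 6, let-7g-5p from 2 to 6 and let-7f-5p from 2 to 6, and their normalised counts overlapped across libraries.

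The family took 2.19%, 9.55% and 3.61% of all miRNA counts in control replicates 1, 2 and 3, and 3.46%, 8.72% and 13.9% in IPC replicates 1, 2 and 3. These shares do not depend on how libraries are scaled to each other. The exact 95% binomial interval was widest in control replicate 2, at 9.40% to 9.70%, and covers counting error only. The control mean was 5.12% ± 3.91 and the IPC mean 8.69% ± 5.21 (SD, n = 3 each), and the difference of 3.58 percentage points was smaller than either SD. IPC replicate 1 lay below control replicates 2 and 3. Single libraries moved the difference both ways, to 0.979 points without IPC replicate 3 and 2.11 without control replicate 1, and to 5.79 without control replicate 2 and 6.19 without IPC replicate 1.

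Within the family, let-7i-5p made up 61.9%, 63.7% and 28.0% of the counts in control replicates 1, 2 and 3, and 70.6%, 68.4% and 50.8% in IPC replicates 1, 2 and 3. The IPC mean of this share lay 12.05 percentage points above the control mean, 0.455 without control replicate 3, and 18.3 without control replicate 2 or without IPC replicate 3. let-7b-5p made up 11.2%, 3.28% and 52.3% in the controls and 5.41%, 2.45% and 1.77% after IPC. Its share in control replicate 3 (exact 95% binomial interval 50.8% to 53.7%) replaced let-7i-5p as the largest, and only there. The let-7b-5p means, 22.2% ± 26.3 in controls and 3.21% ± 1.93 after IPC (SD, n = 3 each), differed by less than the control SD. The IPC mean minus the control mean was -19.0 percentage points with all libraries and -4.01 without control replicate 3.

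let-7g-5p made up 6.80%, 6.60% and 3.31% of the family in control replicates 1, 2 and 3 and 7.73%, 16.8% and 20.6% in IPC replicates 1, 2 and 3, so each IPC library lay above each control. The means were 5.57% ± 1.96 and 15.1% ± 6.61 (SD, n = 3 each). The gap between the groups was narrow, since IPC replicate 1 (interval 7.41% to 8.06%) overlapped control replicate 1 (5.83% to 7.87%) in counting error. let-7a-5p made up 5.52%, 5.46% and 5.47% in the controls and 3.48%, 2.18% and 5.41% after IPC, with IPC replicate 3 within counting error of the controls. These were the 2 of 9 members whose shares did not overlap between groups (in normalised counts, 13.7% of all miRNAs tested did not overlap), and shares of a single sum are not independent of each other. A comparison of 3 with 3 samples cannot go below a two-sided exact permutation p of 0.1, and no test was made on these shares.

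**Figure D2:**
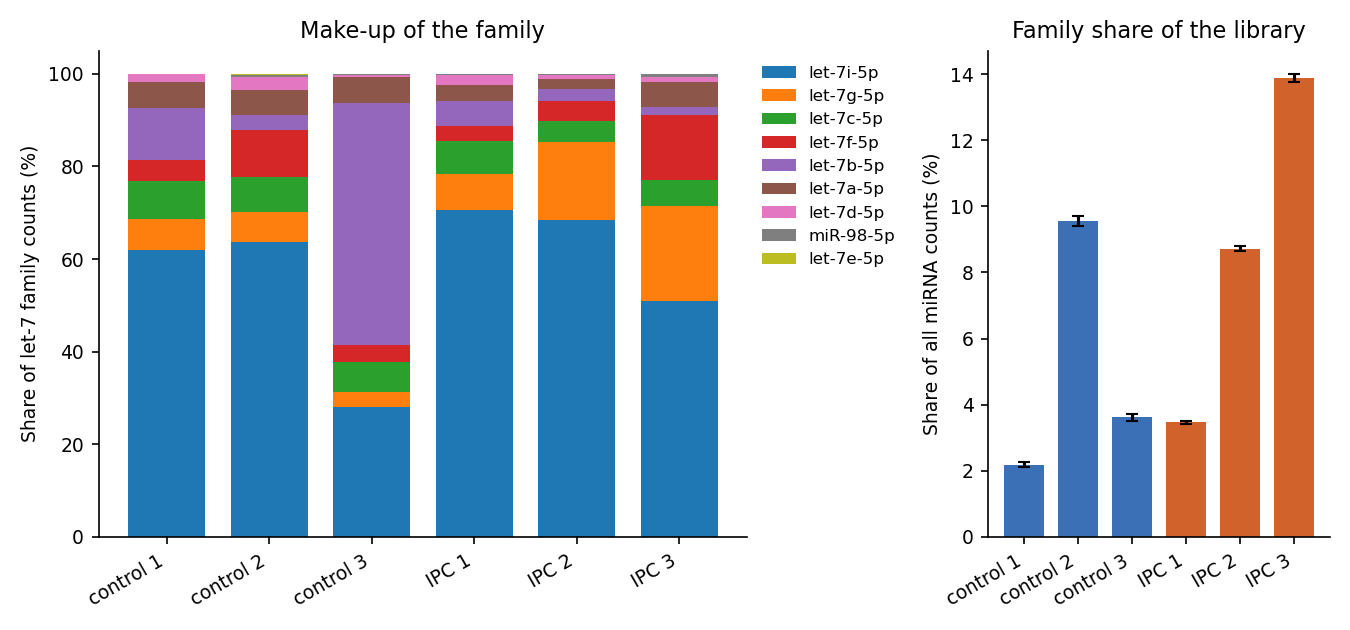
Left, share of each member among the let-7 family counts of each library (%). Right, share of the whole family among all miRNA counts of each library (%), controls in blue, IPC in orange, with exact 95% binomial intervals as bars. let-7b-5p takes 52.3% of the family in control replicate 3 and at most 11.2% elsewhere, and the family share runs from 2.19% in control replicate 1 to 13.9% in IPC replicate 3.

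The levels of close relatives were also set against each other within each library, for pairs chosen after the values were seen. let-7i-5p differs from let-7g-5p by A17G and A19U, with the differing bases in capitals below.
let-7g-5p: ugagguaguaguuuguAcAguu
let-7i-5p: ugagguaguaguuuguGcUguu
There were 10.97, 10.4 and 11.8 reads of let-7g-5p per 100 of let-7i-5p in control replicates 1, 2 and 3 and 10.95 in IPC replicate 1. In IPC replicates 2 and 3 there were 24.6 and 40.5. The ratio was thus nearly the same in 4 libraries of both groups, also in control replicate 2, where both miRNAs were high, and stood apart in the other 2 IPC libraries.

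let-7b-5p and let-7c-5p differ by the single change G17A, with let-7b-5p as the reference, and come from neighbouring genes on chromosome 7 (let-7c-5p also has a gene on chromosome 11). The differing base is in capitals below.
let-7b-5p: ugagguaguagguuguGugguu
let-7c-5p: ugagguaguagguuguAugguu
The count of let-7b-5p over that of let-7c-5p was 1.38, 0.441 and 8.14 in control replicates 1, 2 and 3 and 0.758, 0.534 and 0.307 in IPC replicates 1, 2 and 3. The high let-7b-5p of control replicate 3 was therefore not met by a like level of let-7c-5p in the same library. The ratio of let-7e-5p to let-7a-5p, another pair 1 base apart, was 0.746 to 3.02 per 100 in controls and 1.74 to 2.70 per 100 after IPC. Whether miscalled let-7a-5p reads add to the let-7e-5p count was not tested. The clustered pair let-7f-5p and miR-98-5p stood at 56.0, 24.9 and 43.8 let-7f-5p reads per miR-98-5p read in control replicates 1, 2 and 3, and at 21.1, 20.3 and 23.3 in IPC replicates 1, 2 and 3. Each IPC ratio lay below each control ratio, though the first and last of these control ratios rest on 2 and 4 reads of miR-98-5p. The nearest ratios were 24.9 in control replicate 2 and 23.3 in IPC replicate 3. The former rests on 59 reads of miR-98-5p (exact Poisson interval 44.9 to 76.1), so this gap lies within counting error. How often other pairs of miRNAs separate the groups in this way was not tested.

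**Figure D3:**
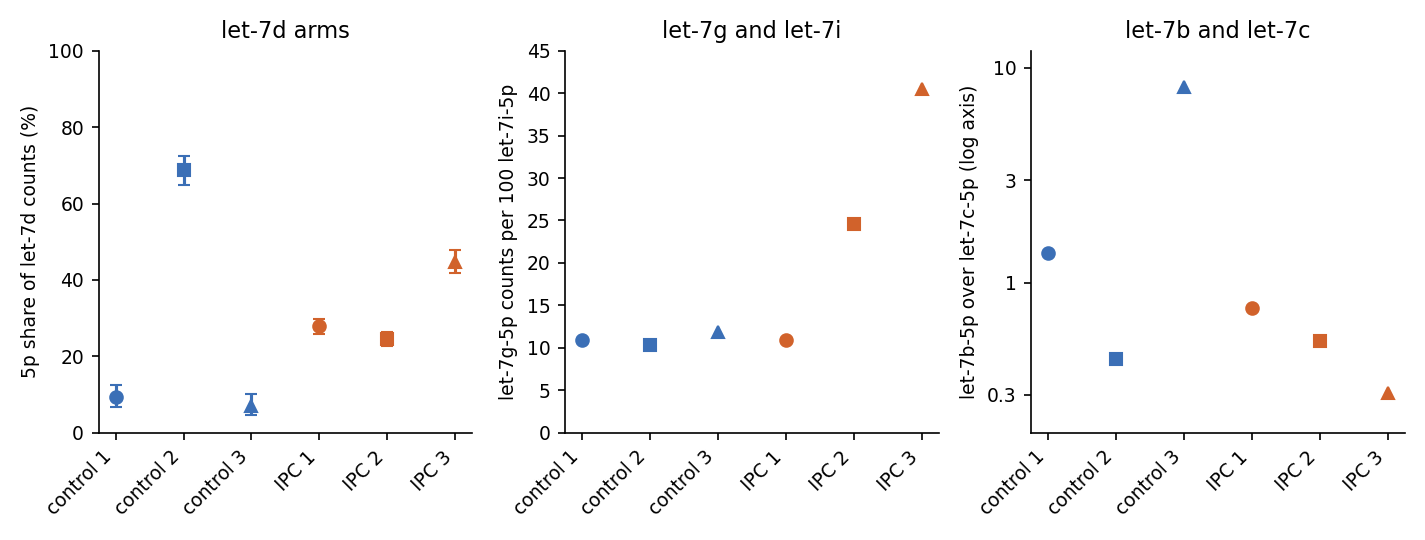
Left, share of let-7d reads from the 5p arm (%) with exact 95% binomial intervals. Middle, let-7g-5p reads per 100 let-7i-5p reads. Right, let-7b-5p over let-7c-5p reads (log axis). Each point is a library, controls in blue and IPC in orange. The let-7g-5p ratio lies between 10.4 and 11.8 in 4 libraries and at 24.6 and 40.5 in the other 2, and the let-7b-5p ratio reaches 8.14 in control replicate 3.

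Whether preconditioning changes the miRNAs that serum exosomes carry is the question of the group comparison, which was tested with limma on log2(value + 1) over all 226 miRNAs, with Benjamini-Hochberg adjustment over all of them, and fold changes are on that scale. No member passed an adjusted p of 0.05 (0 of 9 against 0% of the 226). The let-7g-5p mean was 682 ± 444 normalised counts in controls and 3866 ± 3007 after IPC (SD, n = 3 each). Its log2 fold change was 2.21 (SE 0.86, 95% interval 0.32 to 4.09), or 4.61-fold, with a limma adjusted p = 0.35. At an unadjusted p below 0.05 stood 1 of 9 members, let-7g-5p, against 10.6% of all miRNAs tested, and the same member alone did so in limma-voom on the recovered counts. With median-of-ratios scaling, and without control replicate 1, control replicate 3, IPC replicate 2 or IPC replicate 3, 0 of 9 members did. In limma-voom with sample quality weights 3 of 9 did, where 40 of the 226 miRNAs were higher and 16 lower at this cut-off. Without control replicate 2 it was 5 of 9 in limma, where 55 of the 226 were higher and 24 lower. The let-7i-5p mean was 6354 ± 4498 in controls and 13399 ± 5583 after IPC. Its log2 fold change was 1.20 (SE 0.68, interval -0.28 to 2.69, limma adjusted p = 0.531). The let-7b-5p mean was 2337 ± 2820 in controls and 569 ± 32.0 after IPC. Its log2 fold change was -1.30 (SE 0.83, interval -3.12 to 0.52, limma adjusted p = 0.537). These fold changes are differences of mean log2 values and not log2 ratios of the means printed beside them. The 2 differ most for let-7b-5p, whose control mean is raised by control replicate 3, at 5590.

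The other log2 fold changes were 1.56 (SE 1.10) for miR-98-5p, 0.88 (SE 0.98) for let-7f-5p, 0.64 (SE 0.83) for let-7d-5p and 0.47 (SE 0.65) for let-7c-5p. let-7e-5p had 0.36 (SE 0.94) and let-7a-5p 0.15 (SE 0.75). Their limma adjusted p ran from 0.552 to 0.956. The estimate was positive for 8 of 9 members, against 62.8% of all 226 miRNAs, and the median was 0.64 for the members and 0.38 for all tested. Under 3 other scalings of the libraries 7 of the 8 stayed positive, and let-7a-5p turned to -0.10 with median-of-ratios factors and -0.12 with upper-quartile factors, which move the median of all miRNAs by -0.19 and -0.21. The normalised counts of the groups overlapped for all 9 members, where 13.7% of the 226 had groups that did not overlap (12.4% with every IPC library higher and 1.33% with every IPC library lower).

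**Figure D4:**
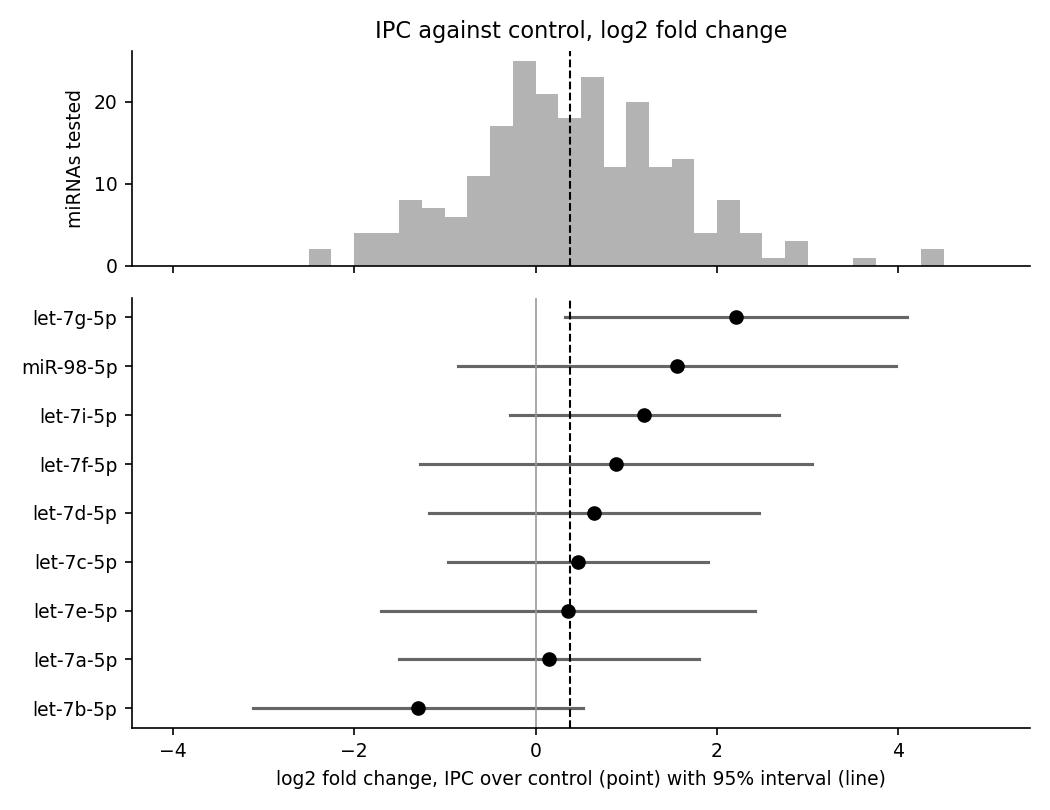
Top, log2 fold changes (IPC over control) of the 226 miRNAs tested as a histogram. Bottom, the 9 members as points with 95% intervals as lines. The dashed line is the median of all miRNAs, 0.38. Only the interval of let-7g-5p, 0.32 to 4.09, lies above 0, and that of let-7b-5p is centred on -1.30.

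Single libraries moved these estimates. Without control replicate 2, let-7g-5p passed the adjusted threshold, at a log2 fold change of 2.70 (limma adjusted p = 0.0319), as 16.8% of the 226 miRNAs then did. let-7i-5p was then at 1.74 (adjusted p = 0.0658), miR-98-5p at 2.54 (0.0628) and let-7b-5p at -1.92 (0.0799, all limma). The let-7b-5p estimate rested on control replicate 3, without which it was -0.30. Without IPC replicate 3 let-7g-5p was at 1.56, miR-98-5p at 0.64 and let-7f-5p at -0.099, and 5 of 9 members were positive. Without IPC replicate 1, the IPC library with the least let-7 by share, let-7g-5p was at 3.13 (limma adjusted p = 0.13).

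**Figure D5:**
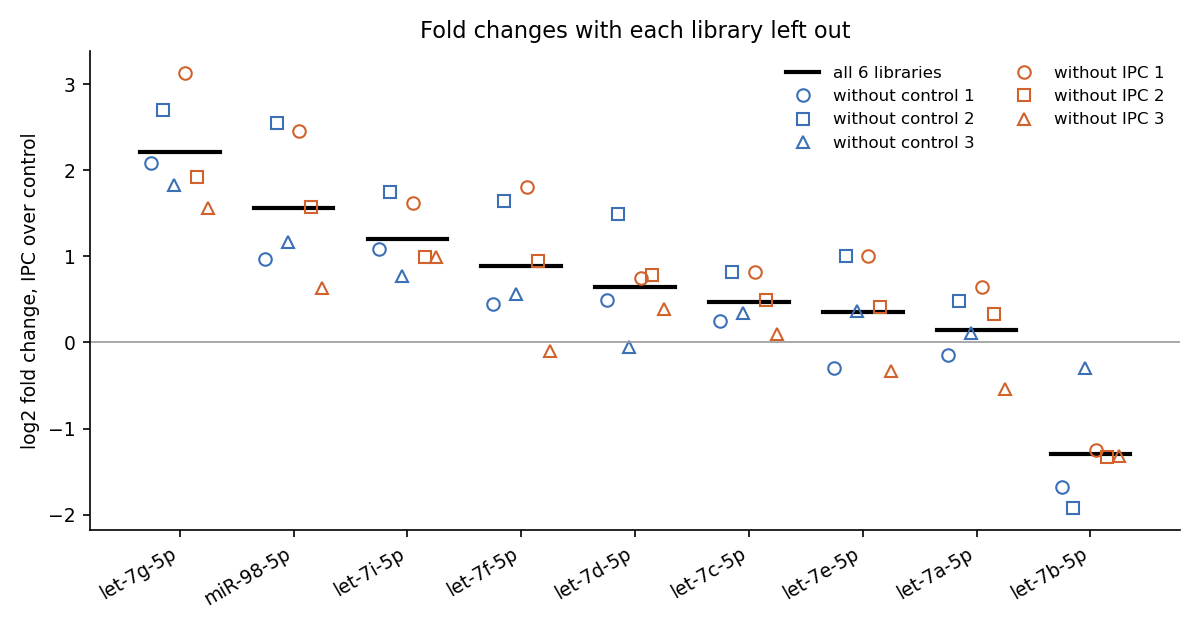
Log2 fold change (IPC over control) of each member with all 6 libraries (black bars) and with each library left out in turn (open symbols, controls in blue, IPC in orange). let-7g-5p stays between 1.56 and 3.13 and let-7b-5p between -1.92 and -0.30, while let-7a-5p runs from -0.54 to 0.65.

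In the authors' deposited table the log2 fold change is 2.50 for let-7g-5p (unadjusted p-value 0.0051) and -2.04 for let-7b-5p (0.0223). Both lie close to the log2 ratios of the group means, whereas the limma values are differences of mean log2 values, so the measures are unlike. The let-7b-5p control mean is raised by control replicate 3, at 5590 normalised counts against 532 to 829 in the other 5 libraries. In the authors' deposited table the p-value of the 7 other members was 0.15 or higher, so 2 of 9 members were below 0.05, against 5.24% of the 763 miRNAs. That share is lowered by miRNAs without a count, since only 480 of the 763 had at least 1, while all 9 members were expressed. When the p-values of the authors' deposited table were adjusted over all its miRNAs by the Benjamini-Hochberg method, let-7g-5p had 0.523 and let-7b-5p 0.794.

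Across libraries the members other than let-7b-5p had like patterns. Pearson's r of log2(value + 1) over the 6 libraries, given as a description since these libraries also share their scaling, was 0.54 to 0.995 over the 28 pairs of those 8 members. For the 8 pairs with let-7b-5p it was -0.83 to -0.13. let-7g-5p and let-7i-5p, whose genes lie on different chromosomes, were at 0.94, and the clustered let-7f-5p and miR-98-5p at 0.97, while let-7b-5p and its neighbour let-7c-5p were at -0.44.

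Outside the family, miR-18a-3p (r = 0.99), miR-10b-5p (0.96) and miR-10a-5p (0.94) followed the summed family level most closely over the 6 libraries. Every r given here is among the highest of all tested miRNAs over few libraries, so it is high in part by selection. miR-18a-3p was also scarce, at 6.13 ± 3.25 normalised counts in controls and 12.4 ± 6.25 after IPC (SD, n = 3 each). miR-10b-5p was the nearest to let-7a-5p (0.88), let-7c-5p (0.996), let-7e-5p (0.94), let-7f-5p (0.98) and miR-98-5p (0.99). let-7i-5p was nearest to miR-101a-3p (0.995), miR-30a-5p (0.97) and miR-1-3p (0.97), the last a miRNA of heart and skeletal muscle. let-7g-5p was nearest to miR-18a-3p (0.95), miR-101a-3p (0.95) and miR-10a-5p (0.93), and let-7d-5p to miR-194-5p (0.98), miR-21-5p (0.98) and miR-7a-5p (0.97). let-7b-5p had other neighbours, miR-130b-5p (0.94), miR-483-5p (0.93) and miR-342-5p (0.89), which had -1.28 (SE 1.06), -1.33 (SE 0.94) and -0.71 (SE 0.77) on the log2 scale. miR-126a-3p, miR-16-5p, miR-466c-5p and miR-18a-3p completed the first 3 of the remaining members, at r of 0.75 to 0.96. Of these miR-466c-5p was scarce as well, at 5.60 ± 8.85 normalised counts in controls and 11.7 ± 8.96 after IPC (SD, n = 3 each).

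The same hairpins also give 3p arms. The most abundant was let-7d-3p, whose RefSeq sequence is shown because it outnumbers its own 5p arm in 5 of 6 libraries, with its own seed, bases 2 to 8, in capitals.
let-7d-3p: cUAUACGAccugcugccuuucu
let-7d-3p had 408, 190 and 344 reads in control replicates 1, 2 and 3 and 1496, 1509 and 588 in IPC replicates 1, 2 and 3. The 5p arm made up 9.33%, 68.8% and 7.03% of let-7d reads in the controls and 27.8%, 24.5% and 44.8% after IPC, in the same order. The exact 95% binomial intervals of control replicate 2 (65.0% to 72.5%) and of the other controls (6.81% to 12.4% and 4.64% to 10.1%) were far apart, so the controls differed among themselves by more than counting error. All IPC libraries lay between control replicate 2 and the other 2 controls, which were both below every IPC library. The IPC mean minus the control mean was 3.98 percentage points with all libraries, 24.2 without control replicate 2, -5.55 without control replicate 1, -6.70 without control replicate 3 and -2.23 without IPC replicate 3. The let-7d-3p mean was 756 ± 506 normalised counts in controls and 542 ± 99.4 after IPC (SD, n = 3 each). In limma this arm had -0.19 on the log2 scale (SE 0.74, adjusted p = 0.956).

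Over all other let-7 genes and miR-98 the 5p arm made up 99.3% to 99.8% of reads in every library. let-7i-3p was the next 3p arm that belongs to a single gene, with 3, 2 and 11 reads in the controls and 34, 37 and 12 after IPC, or 0.199%, 0.0216%, 0.831%, 0.182%, 0.0937% and 0.0532% of let-7i reads. As for let-7d, control replicate 3 had the highest 3p share and control replicate 2 the lowest. let-7a-1-3p and let-7c-2-3p have the same mature sequence and had the same counts in every library.
let-7a-1-3p: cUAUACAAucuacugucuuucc
let-7c-2-3p: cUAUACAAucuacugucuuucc
They held 2, 10 and 18 control reads and 54, 40 and 38 IPC reads, counted in both, and which gene the reads came from cannot be told. let-7a-2-3p had 0 reads in all libraries, as had the 4 miR-3596 miRNAs, which RefSeq places on the strand opposite let-7a, let-7d, let-7e and let-7f genes.

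The miRNAs made from the same primary transcripts as let-7 genes in mammals are miR-100 and miR-125b (with a let-7a gene), miR-99a and miR-125b (with a let-7c gene), and miR-99b and miR-125a (with let-7e). Of these 5 partners, 5 were tested and 0 passed the adjusted threshold in limma, against 0% of all miRNAs tested, and 0 did in limma-voom. At an unadjusted p below 0.05 in limma there were 0 of 5 partners, against 10.6% of all. The most abundant, miR-99a-5p, had a mean of 1426 ± 594 normalised counts in controls and 2150 ± 847 after IPC (SD, n = 3 each). Its log2 fold change was 0.62 (SE 0.65), beside 0.47 for let-7c-5p. The other 4 lay between -0.0097 and 0.15, each with the opposite sign under at least 1 other scaling, and the median of 0.027 compares with 0.38 for all tested. From the let-7e cluster, let-7e-5p had a mean of 15.1 ± 13.0 normalised counts in controls and 20.2 ± 18.5 with IPC (SD, n = 3 each). Its cluster partners had higher means, 84.4 ± 45.4 in controls and 84.5 ± 37.0 with IPC for miR-99b-5p, and 97.5 ± 44.1 in controls and 95.1 ± 26.0 with IPC for miR-125a-5p.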

How the data were processed

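Small RNA libraries of serum exosomes from 3 IPC and 3 control samples were sequenced as single-end reads. FastQC, BWA, edgeR and rn6 are listed in the submitters' processing notes, without roles or versions. The deposited values per library are a normalised count signal, and the authors' table also gives a log2 fold change and a p-value per miRNA, per the file headers. The form of the normalisation was inferred from the values: quantile adjustment, at a dispersion of 0.503, to 265919 reads for every library. Inverting it gave whole counts for 4578 of 4578 values (within 0.01 counts), and these carry shares, intervals and depth. Of the 763 miRNAs only 480 had a count, and the values of the others are 0 by construction and add no support to the inferred form.

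The 226 miRNAs with 10 counts at the median effective library size in 3 libraries and 15 in all were tested with limma 3.58.1 (R 4.3.3; trended, robust) on log2(value + 1), with Benjamini-Hochberg adjustment and a threshold of 0.05. The test was also run on simulated data in which the libraries of a group were alike apart from depth and random spread. That simulation cannot show how the test behaves with the unlike controls found here. Named miRNAs are the members, their 3p arms, the 5 cluster partners and, for likeness, the 3 tested miRNAs with the highest r. Members and lists were chosen with earlier results of these data known. Other pseudocounts, filters, scalings, tests, a replicate block and leaving out each library were tried. Intervals are exact and cover counting error only. Sequences and positions are from RefSeq GRCr8, not the authors' build.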

Additional observations from a re-analysis of the deposited data

How the results depend on the processing

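The number of miRNAs past the adjusted threshold was 0 in limma (24 at an unadjusted p below 0.05), 3 with no filter on low values, 2 with limma-voom and sample quality weights, 2 with the replicate number as a block, and 0 to 38 when leaving out 1 library, with 38 without control replicate 2. Same-numbered samples deviated from their group means with r of 0.132, -0.184 and -0.511, and differently numbered ones with r of -0.424 to 0.644. The labels pair no samples, and such r cannot show whether same-numbered samples were handled together. Under the replicate block let-7g-5p had a limma adjusted p of 0.184. let-7g-5p passed the threshold only without control replicate 2, and of 152 alternatives for the members 143 kept direction and side and 8 changed sign. let-7a-5p was at -0.10 (median of ratios) and -0.12 (upper quartile), and leaving out 1 library gave -0.54 to 0.65, with -0.053 to 1.49 for let-7d-5p, -0.33 to 1.00 for let-7e-5p and -0.099 to 1.81 for let-7f-5p. For the partners 65 alternatives kept direction and 20 changed sign. With median-of-ratios and upper-quartile factors miR-100-5p was at -0.094 and -0.11, miR-99b-5p at -0.22 and -0.24 and miR-125a-5p at -0.22 and -0.24. miR-125b-5p was at 0.0039 by library total and 0.13 with quality weights, where miR-99b-5p was at -0.010. Leaving out 1 library gave -0.12 to 0.41 for miR-100-5p, -0.36 to 0.57 for miR-125b-5p, -0.28 to 0.43 for miR-99b-5p and -0.28 to 0.36 for miR-125a-5p. The cause was not tested. The family share difference ran from 0.979 to 6.19 percentage points and that of let-7i-5p within the family from 0.455 to 18.3 when leaving out 1 library. Without let-7i-5p in the sum, the let-7g-5p difference was 26.9 points and that of let-7c-5p -0.076. let-7e-5p had no value under the filter at 30 counts, and the let-7i-5p share none without let-7i-5p. Control depth limits miR-98-5p and let-7e-5p, with as few as 2 and 1 reads.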
